A study of Mus musculus with 12 samples.

Results

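The genes described here encode the enzymes of heme synthesis, with the mitochondrial carrier of its first substrate, in PreMegEs, the bone marrow progenitors that can give rise to both megakaryocytes and erythroid cells. The members are Slc25a38, Alas1, Alas2, Alad, Uros, Urod, Cpox, Ppox and Fech, taken by symbol, and all 9 were found among the 41128 genes of the count table. The enzyme that acts between those encoded by Alad and Uros is not reported here. RNA-Seq had been carried out on 12 libraries from adult bone marrow of C57BL/6 mice aged 12 to 16 weeks, with 3 libraries in each of 4 groups and cells of 3 mice pooled for each library. WT PreMegEs came from wild type mice. P2- and P2+ PreMegEs came from heterozygous Runx1 P1-GFP::P2-hCD4/+ mice, in which one Runx1 allele reports the distal promoter P1 by GFP and the proximal promoter P2 by human CD4, and P1+ cells were separated by hCD4 into both fractions. KO PreMegEs came from RUNX1C knockout mice, which lack the isoform made from P1 through GFP inserted on both alleles, keep P2, and were not separated by a reporter. The WT cells carried no reporter, so fraction and genotype differ together in each comparison of a reporter fraction with WT.

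Heme is built from glycine and succinyl-CoA. The first step takes place in the mitochondrion, the intermediate steps in the cytosol, and the last steps in the mitochondrion again, where iron is inserted. SLC25A38 brings glycine into the mitochondrion, and 2 isozymes carry out the first and rate-limiting step: ALAS1, made in most tissues, and ALAS2, made in erythroid cells. ALAD, UROS and UROD act in the cytosol, CPOX and PPOX carry out the oxidations that give protoporphyrin, and FECH inserts the iron. Erythroid cells make most of the heme of the body and raise these enzymes together as they mature, with GATA1 as a regulator of several of the genes.

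Library totals ran from 10726098 to 14445026 counts. Levels are given as CPM, the counts scaled to the size of each library, which was adjusted by the TMM method. The 3 counts that a count of 0 allows are 0.207 to 0.288 CPM, a limit set by counting error alone. Replicates differed by more than counting error, and pairs within a group had chi-square values of 4.49 to 32.8 per degree of freedom. The largest values involved replicate 2 of P2- and of P2+, 2 libraries that stood apart with high immediate early transcripts. Fos had 1327 CPM in P2- replicate 2 and 903 CPM in P2+ replicate 2, against 166 CPM or less in every other library. Kit, which marks the gate, had at least 732 CPM in every library. Runx1, counted over transcripts of both promoters, was higher in P2+ than in P2- (log2 fold change 1.59), and its log2 fold change between KO and WT was -0.05 (adjusted p = 0.702, edgeR's quasi-likelihood test), a gene count that cannot check the loss of RUNX1C alone.

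Promoter sequences are shown for Cpox, the member with the largest fold change in 3 of the 4 comparisons (all but P2+ against WT), and for Alas2, the erythroid isozyme, because both hold the GATAA core of the GATA factor motif. Both stretches are 100 bases long, read 5′ to 3′ on the + strand of GRCm38.p6, and TTATC in capitals is GATAA read on the opposite strand. The Cpox stretch, chr16:58670108-58670207, ends at the base before the RefSeq start. The Alas2 stretch, chrX:150547275-150547374, ends at the base before the GENCODE start of the gene. The third sequence is the iron responsive element in the 5′ UTR of Alas2, chrX:150547459-150547483 on the + strand, a hairpin through which iron regulatory proteins control translation of the mRNA, with its loop in capitals.
Cpox upstream: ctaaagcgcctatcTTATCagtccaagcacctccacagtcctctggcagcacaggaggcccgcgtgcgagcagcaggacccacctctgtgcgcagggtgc
Alas2 upstream: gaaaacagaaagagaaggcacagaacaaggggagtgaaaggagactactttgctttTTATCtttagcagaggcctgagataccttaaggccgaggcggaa
Alas2 iron responsive element: tggttcgtcctCAGTGCagggcaac

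RefSeq promoter windows, from 250 bases before to 50 after a start, were held for 8 members, all but Fech. GATAA, searched on both strands, occurred in the windows of Cpox (at -86 and at 5 from the start), Alas2 (at -86) and in one of the windows of Uros (at -68), and in 25.4% of all 32851 windows. CCNCNCCC, a form of the motif bound by Kruppel-like factors such as KLF1, was held by at least 1 window of each of the 8 members and by 49.5% of all windows. TGTGGT, the core of the RUNX motif, was found in the Urod window alone (at -199, background 16.8%). Neither TGACTCA (5.2%) nor CTG followed by 9 bases and GATAA (0.861%), a spacing bound jointly by SCL and GATA1, was found in any of these windows. The loop and stem of an iron responsive element were matched in the 5′ UTR of 31 of 21200 genes (0.146%), and Alas2 was the 1 member among them. These are matches of letters and were not tested for binding.

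The separation by P2 activity asked how PreMegEs that do and do not use the proximal Runx1 promoter differ. Most of the heme pathway was lower in P2+ than in P2- PreMegEs. Of the 8 members tested, 7 fell at an adjusted p under 0.05 and none rose (edgeR's quasi-likelihood test), where 17.0% of the 12836 genes tested fell and 20.1% rose. For the same 7, every P2+ library lay below every P2- library, as did 25.1% of all genes tested. The median log2 fold change of the members tested was -0.82, against -0.02 over all genes tested. Cpox and Alad fell by at least 2-fold, as did 3.13% of all genes tested, Alas1 did not pass the test, and Alas2 was below the filter of at least 1 CPM in 3 libraries.

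**Figure D1:**
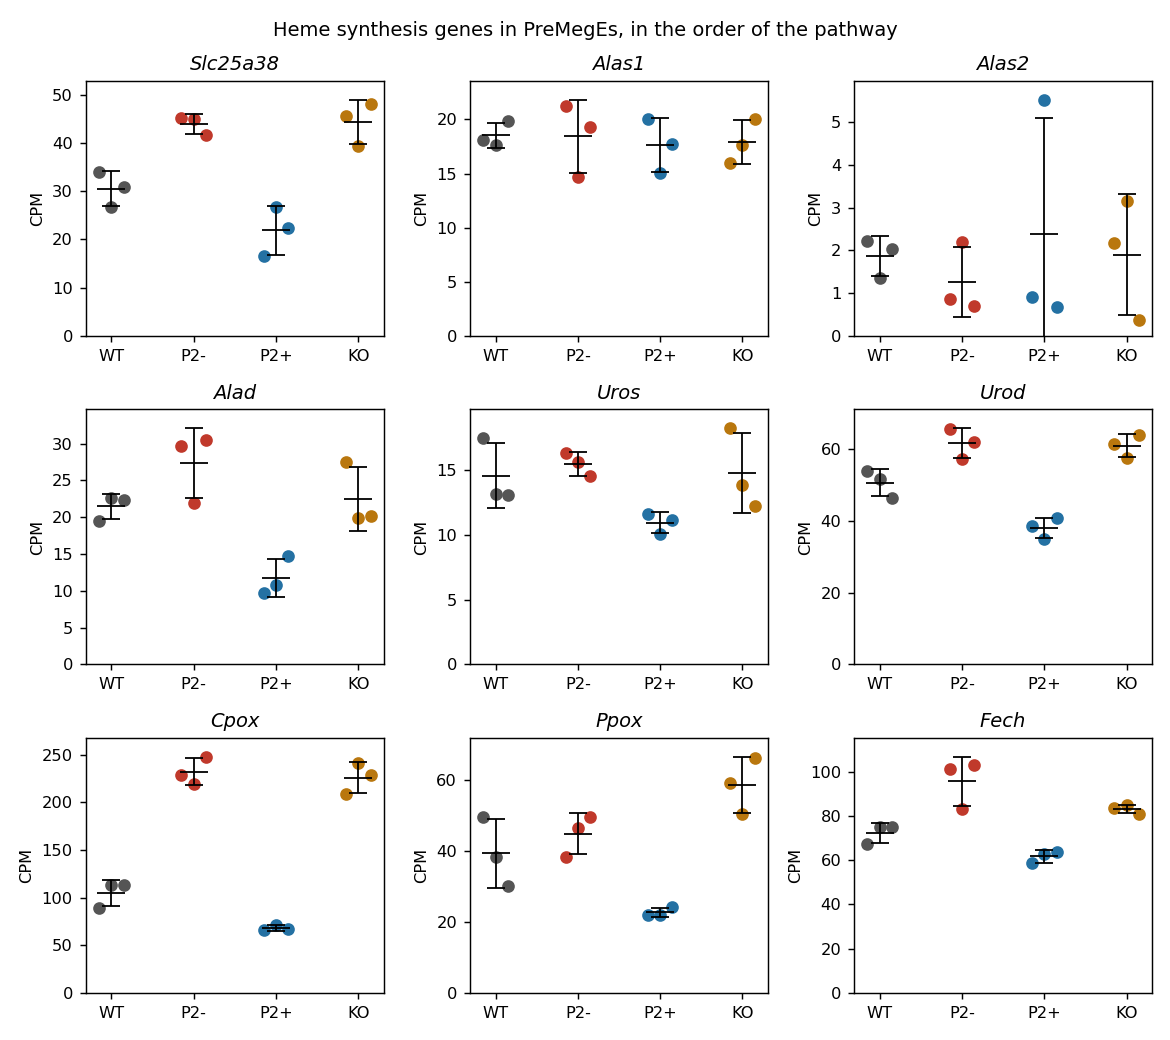
TMM-scaled CPM of the 9 members, in the order of the pathway, in each library of WT, P2-, P2+ and KO PreMegEs (points), with the group mean and SD (bars, n = 3, cut at 0 for Alas2). The P2+ points lie below all P2- points for every member but Alas1 and Alas2, and the KO points of Cpox, 209 to 241 CPM, lie beside those of P2-, 220 to 248 CPM.

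Entry into the pathway was described first by Slc25a38 (ENSMUSG00000032519, chromosome 9, 120110374 to 120124504), the glycine carrier. Its levels were 45.1, 45.0 and 41.6 CPM in the P2- libraries and 16.6, 26.6 and 22.3 CPM in the P2+ libraries. WT libraries held 34.0, 26.7 and 30.8 CPM and KO libraries 45.6, 39.3 and 48.1 CPM, so that P2- and KO lay together above WT and P2+ below it. Slc25a38 was 1.99-fold lower in P2+ than in P2- (log2 fold change -0.99, SE 0.16, adjusted p = 0.00163, edgeR's quasi-likelihood test).

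Alas1 (ENSMUSG00000032786, chromosome 9, 106233455 to 106248654), the housekeeping isozyme of the first step, had nearly the same level in all groups. Its means were 18.5 ± 1.14 CPM in WT, 18.4 ± 3.37 in P2-, 17.6 ± 2.49 in P2+ and 17.9 ± 2.03 in KO (SD, n = 3), and the 12 libraries spanned 14.7 to 21.3 CPM. All 4 groups overlapped. The log2 fold change of Alas1 between P2+ and P2- was -0.06 (SE 0.18, adjusted p = 0.840, edgeR's quasi-likelihood test), and it stayed between -0.07 and 0.00 in the 3 comparisons with WT.

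Alas2 (ENSMUSG00000025270, chromosome X, 150547375 to 150570638), the erythroid isozyme, had the lowest counts of the members, with libraries of P2+ and of KO that lay further apart than the means of the 4 groups. It had 32, 16 and 28 counts in the WT libraries, 11, 23 and 10 in P2-, 11, 80 and 9 in P2+, and 25, 37 and 4 in KO, or 0.364 to 5.52 CPM. P2+ replicate 2 stood highest with 5.52 CPM, while the other P2+ libraries held 0.921 and 0.686 CPM. No call was made for Alas2 in any comparison in which it was tested: the log2 fold change was -0.60 (SE 0.49, adjusted p = 0.451) for P2- against WT, 0.37 (SE 0.68, adjusted p = 0.763) for P2+ against WT and 0.02 (SE 0.52, adjusted p = 0.987) for KO against WT, in edgeR's quasi-likelihood test. Without P2+ replicate 2 the value for P2+ against WT was -1.22 and also missed the threshold. The libraries of all 4 groups overlapped. Alas2 shares 372 exonic bases with Apex2 and Mir3620 on the other strand, and Apex2 had 11.2 to 21.5 CPM over the libraries, more than Alas2 in each, so that with the strand setting of the counting unknown the part of Apex2 reads in the Alas2 counts was not tested.

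The red cell transcripts of the libraries moved with Alas2. Over the 12 libraries, the genes with the pattern most like that of Alas2, by the root mean square difference of centred log2 CPM among 9530 genes, were Slc4a1 (0.507), which encodes the anion exchanger of the red cell membrane, Hbb-bs (0.550), an adult beta globin gene, Dusp6 (0.651), Crocc (0.728) and Pnrc1 (0.733), where Alas2 itself had a root mean square of 0.938. In P2+ replicate 2, Slc4a1 reached 54.6 CPM and Hbb-bs 25.8 CPM, against 20.4 and 6.63 CPM for Slc4a1 and 7.37 and 3.58 CPM for Hbb-bs in the other P2+ libraries. KO replicate 3 was the lowest library for all 3 genes, with 5.01 CPM of Slc4a1 and 1.27 CPM of Hbb-bs. The alpha globin genes Hba-a1 and Hba-a2 stayed at or under 0.770 CPM in every library. In bulk samples, fewer cells of a type and less RNA per cell cannot be told apart, and the part of maturing erythroid cells in the Alas2 counts was not tested.

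**Figure D2:**
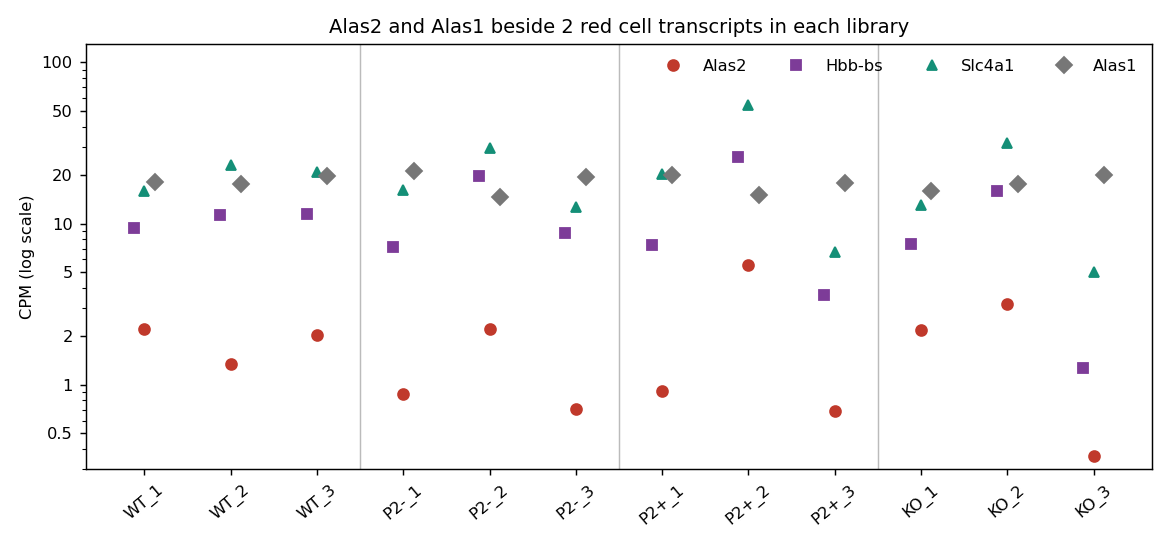
TMM-scaled CPM (log axis) of Alas2, Alas1, Hbb-bs and Slc4a1 in each of the 12 libraries, which are named by group and replicate. Alas2, Hbb-bs and Slc4a1 are all highest in P2+ replicate 2 (5.52, 25.8 and 54.6 CPM) and lowest in KO replicate 3 (0.364, 1.27 and 5.01 CPM), while Alas1 stays between 14.7 and 21.3 CPM.

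Set against each other within a library and per exonic length, Alas1 stood from 1.06 times the level of Alas2 in P2+ replicate 2 (2.44 and 2.30 RPKM, CPM per kilobase) to 21.4 times in KO replicate 3 (3.24 and 0.151 RPKM). With the longest transcript as the length, the same ratios were 1.63 and 33.0, so the near equality in P2+ replicate 2 rests on the length used. In CPM, without the lengths, they were 2.73 and 55.0. The log2 ratio of Alas2 to Alas1 in CPM, with 0.5 CPM added to each, was -3.02 ± 0.26 in WT, -3.50 ± 0.88 in P2-, -3.05 ± 1.46 in P2+ and -3.16 ± 1.23 in KO (SD, n = 3). The difference of 0.449 between P2+ and P2- was within the spread (exact two-sided permutation test, p = 0.5, where 3 libraries against 3 cannot go below 0.1) in this unpaired test. Within pairs of the same replicate number the difference was 0.132, 1.12 and 0.0954, higher in P2+ in 3 of 3 pairs (exact sign-flip permutation test, two-sided, p = 0.25, the smallest that 3 pairs allow). It was 0.113 without replicate 2 of both fractions, and -0.394 where P2+ replicate 2 was left out and P2- replicate 2 was kept, which breaks a pair. The genes most like Alas1 over the libraries were Edc3 (0.0751), Dcaf7 (0.0898), Cbll1 (0.0944), Smarcc1 (0.0992) and 1110004F10Rik (0.101), with 0.161 for Alas1 itself.

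Of the cytosolic enzymes, Alad (ENSMUSG00000028393, chromosome 4, 62509169 to 62519918), which joins pairs of aminolevulinate into porphobilinogen, held 29.7, 21.9 and 30.4 CPM in P2- and 9.72, 10.8 and 14.7 CPM in P2+. WT libraries held 19.5, 22.5 and 22.4 CPM and KO libraries 27.5, 19.8 and 20.1 CPM, so that P2+ alone stood apart from the other groups, which overlapped. Alad was 2.31-fold lower in P2+ than in P2- (log2 fold change -1.21, SE 0.20, adjusted p = 0.00162, edgeR's quasi-likelihood test).

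Uros (ENSMUSG00000030979, chromosome 7, 133686243 to 133710072), which closes the porphyrin ring, was the member with the weakest call. It had 16.3, 15.7 and 14.5 CPM in P2- and 11.6, 10.1 and 11.1 CPM in P2+, while WT held 13.1 to 17.5 CPM and KO 12.3 to 18.2 CPM. Uros was 1.40-fold lower in P2+ than in P2- (log2 fold change -0.49, SE 0.15, adjusted p = 0.0306, edgeR's quasi-likelihood test). With any 1 of the 6 libraries left out it missed the threshold, at adjusted p = 0.0504 to 0.0889, in fits that ignore the pairing by replicate number and break a pair. With the replicate number as a block in the same test and all 6 libraries kept, adjusted p was 0.0176. Uros lies opposite Bccip, which shares none of its exonic bases and also fell, by 0.55 on the log2 scale (adjusted p = 0.00489).

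Urod (ENSMUSG00000028684, chromosome 4, 116989965 to 116994413), which trims the side chains of the ring to give coproporphyrinogen, had 65.7, 57.3 and 62.0 CPM in P2- and 38.5, 35.1 and 40.7 CPM in P2+. WT libraries lay between both fractions, with 54.0, 51.7 and 46.5 CPM, and KO libraries beside P2-, with 61.6, 57.6 and 63.9 CPM. Urod was 1.60-fold lower in P2+ than in P2- (log2 fold change -0.68, SE 0.10, adjusted p = 0.000998, edgeR's quasi-likelihood test).

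Cpox (ENSMUSG00000022742, chromosome 16, 58670292 to 58717636), whose upstream stretch is shown above, encodes coproporphyrinogen oxidase and had widely separated levels in the fractions. Its levels were 229, 220 and 248 CPM in P2- and 65.8, 71.8 and 67.6 CPM in P2+. WT libraries held 88.9, 113 and 113 CPM and KO libraries 209, 241 and 228 CPM. WT thus lay between the fractions without reaching either, and KO overlapped P2-. Cpox was 3.36-fold lower in P2+ than in P2- (log2 fold change -1.75, SE 0.08, adjusted p = 2.09e-06, edgeR's quasi-likelihood test), and the log2 fold change stayed between -1.81 and -1.71 over 14 settings of the analysis. Cpox shares 204 exonic bases with Gpr15 on the other strand, a gene with 0.347 CPM or less in every library.

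Ppox (ENSMUSG00000062729, chromosome 1, 171275990 to 171281186), which gives protoporphyrin, had 38.3, 46.5 and 49.5 CPM in P2- and 21.9, 22.0 and 24.2 CPM in P2+. WT libraries were spread over 49.5, 38.2 and 30.0 CPM, and KO libraries were highest with 59.0, 50.5 and 66.2 CPM. Ppox was 1.95-fold lower in P2+ than in P2- (log2 fold change -0.97, SE 0.12, adjusted p = 0.000433, edgeR's quasi-likelihood test). It shares 791 exonic bases with B4galt3 on the other strand, which had 22.5 to 32.2 CPM over the libraries and a log2 fold change of -0.17 (adjusted p = 0.351) in the same comparison.

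Fech (ENSMUSG00000024588, chromosome 18, 64452914 to 64490251), the ferrochelatase that ends the pathway, had 101, 83.0 and 103 CPM in P2- and 58.5, 63.0 and 63.8 CPM in P2+. WT libraries held 67.2, 75.1 and 75.0 CPM and KO libraries 83.7, 84.8 and 81.0 CPM, so that the 4 groups stood in the order P2+, WT, KO and P2-, with overlap between KO and P2- alone. Fech was 1.54-fold lower in P2+ than in P2- (log2 fold change -0.62, SE 0.10, adjusted p = 0.00126, edgeR's quasi-likelihood test).

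**Figure D3:**
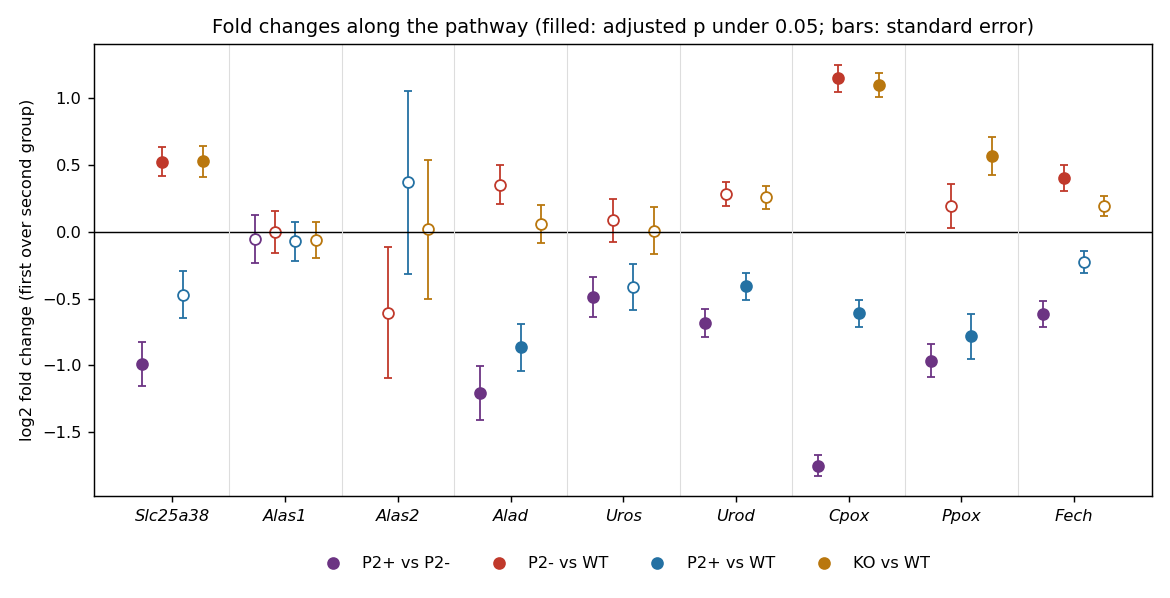
Log2 fold change and standard error of each member in the 4 comparisons, in the order of the pathway, with filled points for an adjusted p under 0.05 (edgeR's quasi-likelihood test). Cpox lies lowest in P2+ against P2- (-1.75) and highest in P2- against WT (1.15) and KO against WT (1.10), and Alas1 lies near 0 in all 4. Alas2 has no point in P2+ against P2-, where it was below the filter.

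The 3 comparisons with WT share the WT libraries, and those with a fraction share its libraries with the comparison above, so their values are given side by side. In P2- against WT, 3 of 9 members rose and none fell, where 6.85% of the 12767 genes tested rose and 9.6% fell. All P2- libraries lay above all WT libraries for 4 members (17.0% of genes tested), and Cpox alone rose by at least 2-fold (0.572% of genes tested). Cpox rose 2.22-fold (log2 fold change 1.15, SE 0.10, adjusted p = 8.34e-05), Slc25a38 1.44-fold (0.53, SE 0.11, adjusted p = 0.0100) and Fech 1.32-fold (0.40, SE 0.10, adjusted p = 0.0201) in edgeR's quasi-likelihood test. Urod (log2 fold change 0.28, adjusted p = 0.0587), Alad (0.35, adjusted p = 0.136), Ppox (0.19) and Uros (0.09) did not pass. Leaving out P2- replicate 2 raised the count to 5, with Alad and Urod added. Leaving out WT replicate 2 left Cpox as the 1 member called, with Slc25a38 at adjusted p = 0.0518 and Fech at 0.0543. Fech also missed the threshold without WT replicate 1 (adjusted p = 0.0938), P2- replicate 1 (0.0599) or P2- replicate 3 (0.0714).

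In P2+ against WT, 4 of 9 members fell and none rose, where 7.07% of the 12941 genes tested fell and 9.45% rose. All P2+ libraries lay below all WT libraries for 7 members (17.5% of genes tested), and no member fell by 2-fold (1.68% of genes tested). Alad fell by 0.86 (SE 0.18, adjusted p = 0.00770), Ppox by 0.78 (SE 0.17, adjusted p = 0.0103), Cpox by 0.61 (SE 0.10, adjusted p = 0.00279) and Urod by 0.41 (SE 0.10, adjusted p = 0.0193) on the log2 scale, in edgeR's quasi-likelihood test. Slc25a38 (log2 fold change -0.47, adjusted p = 0.0948), Uros (-0.41, adjusted p = 0.134) and Fech (-0.22, adjusted p = 0.0949) did not pass, though the P2+ libraries of all 3 lay below those of WT. Slc25a38 passed without P2+ replicate 2 (log2 fold change -0.65, adjusted p = 0.0152). Urod missed the threshold without WT replicate 1 (adjusted p = 0.0945), WT replicate 2 (0.0814) or P2+ replicate 1 (0.0527).

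KO against WT asked what the loss of RUNX1C changes in unseparated PreMegEs. Here 3 of 9 members rose and none fell, where 6.18% of the 12784 genes tested rose and 8.76% fell. All KO libraries lay above all WT libraries for 5 members (15.7% of genes tested), and Cpox alone rose by at least 2-fold (0.743% of genes tested). Cpox rose 2.14-fold (log2 fold change 1.10, SE 0.09, adjusted p = 1.52e-07), Ppox 1.48-fold (0.57, SE 0.14, adjusted p = 0.0112) and Slc25a38 1.44-fold (0.53, SE 0.11, adjusted p = 0.00394) in edgeR's quasi-likelihood test. Urod (log2 fold change 0.26, adjusted p = 0.0632) and Fech (0.19, adjusted p = 0.108) did not pass, with KO libraries above those of WT, and Alad (0.06) and Uros (0.01) stood near 0. Ppox missed the threshold without KO replicate 3 (log2 fold change 0.47, adjusted p = 0.0896). Whether the KO libraries were prepared with the others is not given in the sources used here, so genotype and preparation cannot be told apart.

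With the P2- mean of a gene set to 0% and its P2+ mean to 100% in CPM, the WT mean of Cpox lay at 77.7% and its KO mean at 3.75%. Slc25a38 (WT 60.8%, KO -2.00%) and Urod (WT 46.4%, KO 2.87%) also had KO means close to P2-. Fech (WT 68.6%, KO 36.9%) and Alad (WT 37.6%, KO 31.1%) had KO means between the fractions, with KO libraries of Alad spread from -1.09% to 48.0%. Uros (WT 19.7%, KO 15.5%) had KO libraries from -60.3% to 70.7% and so no clear position. Ppox (WT 25.1%, KO -62.6%) had a KO mean beyond that of P2-. KO was not compared with P2- by a test.

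Levels of different members were compared per length, in RPKM, the TMM-scaled CPM divided by the exonic length in kilobases. In WT the order was Urod (19.6 ± 1.47), Cpox (15.8 ± 2.09), Alad (11.5 ± 0.922), Slc25a38 (11.1 ± 1.33), Ppox (8.69 ± 2.17), Fech (5.23 ± 0.325), Uros (4.08 ± 0.709), Alas1 (3.00 ± 0.185) and Alas2 (0.778 ± 0.190) RPKM (SD, n = 3). The libraries of Alad and Slc25a38, of Slc25a38 and Ppox, and of Fech and Uros overlapped, and the other 5 neighbouring pairs did not. With the longest transcript as the length, Slc25a38 (17.0 ± 2.04 RPKM) ranked above Alad (12.1 ± 0.975) and Fech (11.02 ± 0.685) above Ppox (8.89 ± 2.22), and Urod (34.1 ± 2.56) and Cpox (33.9 ± 4.49) overlapped, so this part of the order rests on the length used. Urod also led in P2+ (14.7 ± 1.10 RPKM, Cpox 10.3 ± 0.464), whereas Cpox led in P2- (34.9 ± 2.15 RPKM, Urod 23.8 ± 1.61) and in KO (34.0 ± 2.48 RPKM, Urod 23.5 ± 1.23). In P2+ the libraries of Alas1 (2.44 to 3.24 RPKM) overlapped those of Uros (2.82 to 3.26 RPKM), and with the longest transcript as the length Alas1 (5.18 RPKM) ranked above Ppox (5.15) and Uros (5.003).

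**Figure D4:**
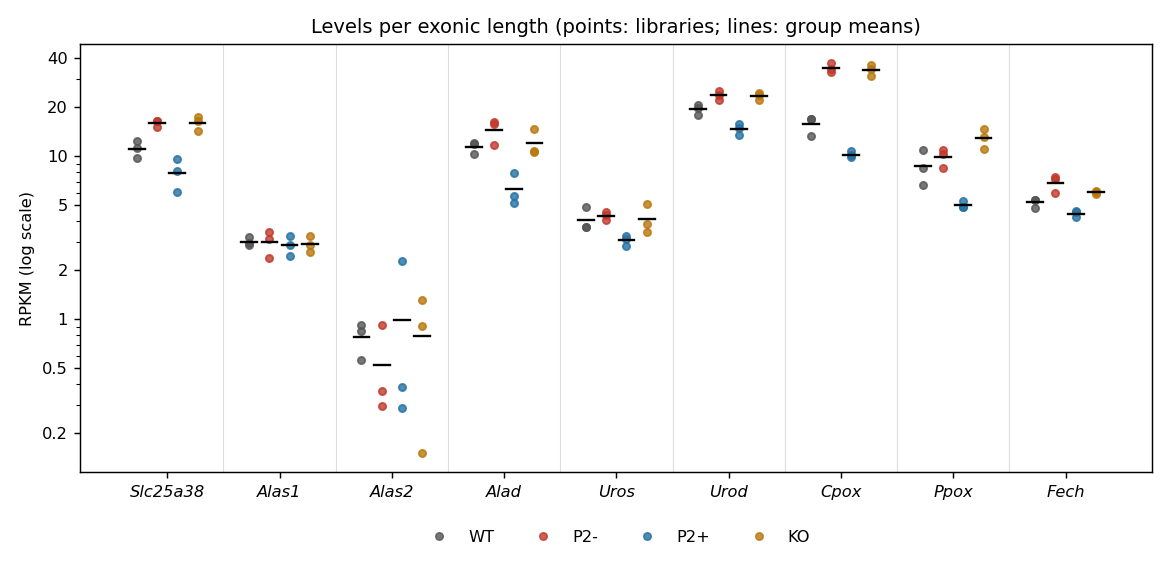
RPKM (log axis) of the 9 members along the pathway, with a point for each library and a line for each group mean (n = 3). Alas1 (near 3 RPKM) and Alas2 (0.151 to 2.30 RPKM) lie lowest in WT, P2- and KO, while in P2+ Alas1 overlaps Uros, and Cpox stands at 34.9 RPKM in P2- and 34.0 RPKM in KO against 15.8 in WT and 10.3 in P2+.

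Summed over the 9 members, the level was 79.7 ± 1.82 RPKM in WT, 114 ± 5.95 in P2-, 55.6 ± 3.23 in P2+ and 112 ± 3.25 in KO (SD, n = 3). Cpox made up 19.8% ± 2.99 of this sum in WT, 30.6% ± 0.915 in P2-, 18.5% ± 0.898 in P2+ and 30.2% ± 2.96 in KO. The share of Alas1 was 3.77% ± 0.306 in WT, 2.61% ± 0.373 in P2-, 5.16% ± 0.990 in P2+ and 2.57% ± 0.285 in KO. The level of Alas1 was nearly the same in all groups, so its share had to move against the sum. It was lowest in KO and P2-, where the sum was highest, and highest in P2+, where the sum was lowest. Slc25a38 made up close to the same share in all groups, from 13.9% in WT to 14.3% in KO. These shares describe the libraries and were not tested. They rest on the exonic lengths and were not computed with the longest transcript as the length.

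The genes around the pathway were taken from 4 lists, whose counts stand against the shares of all genes tested given above (in P2+ against P2-, 20.1% rose and 17.0% fell). Among 24 partners of heme synthesis in the mitochondrion, 10 fell (41.7%) and none rose in P2+ against P2- (median log2 fold change -0.32). The largest falls were in Tspo2 (-4.69, SE 0.31, adjusted p = 1.05e-05), an erythroid relative of the translocator protein, and Glrx5 (-1.06, SE 0.11, adjusted p = 0.000132), a glutaredoxin of iron-sulfur cluster assembly. In the same list 4 rose (16.7%, all genes 6.85%) and none fell in P2- against WT, 6 fell (25%, all genes 7.07%) and none rose in P2+ against WT, and 5 rose (20.8%, all genes 6.18%) and 1 fell (4.17%, all genes 8.76%) in KO against WT. Of 14 genes listed for heme export, uptake, breakdown and sensing, 12 were tested and 2 were not analysed here. In P2+ against P2-, 3 of these fell (25%, all genes 17.0%) and 1 rose (8.33%, all genes 20.1%). The falls were led by Blvrb (-2.47, SE 0.14, adjusted p = 5.37e-06), a biliverdin reductase, and Hebp1 (-1.98, SE 0.39, adjusted p = 0.00428), a heme-binding protein, and the rise was in Hmox2, the constitutive heme oxygenase (0.47, SE 0.09, adjusted p = 0.00429). The median of this list was 0.07, near the -0.02 of all genes tested. It had 1 rise and 1 fall in P2- against WT (8.33% each, all genes 6.85% and 9.6%), no rise and 2 falls in P2+ against WT (16.7%, all genes 7.07%), and 1 rise (8.33%, all genes 6.18%) and 3 falls (25%, all genes 8.76%) in KO against WT.

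Among 12 genes of iron supply and storage, 8 fell (66.7%, all genes 17.0%) and none rose in P2+ against P2- (median log2 fold change -0.68), led by Slc40a1 (-4.21, SE 0.18, adjusted p = 2.01e-06), the iron exporter ferroportin, and Tfrc (-1.45, SE 0.14, adjusted p = 7.52e-05), the transferrin receptor. In this list 6 rose (50.0%, all genes 6.85%) and none fell in P2- against WT, 5 fell (41.7%, all genes 7.07%) and none rose in P2+ against WT, and 5 rose (41.7%, all genes 6.18%) and none fell in KO against WT. Of 12 listed regulators of erythroid genes, 11 were tested, and in P2+ against P2- 5 fell (45.5%, all genes 17.0%) and 2 rose (18.2%, close to the 20.1% of all genes), with a median log2 fold change of -0.11. The falls were led by Klf1 (-2.71, SE 0.09, adjusted p = 1.31e-06), the erythroid Kruppel-like factor, and Epor (-1.63, SE 0.12, adjusted p = 1.59e-05), the erythropoietin receptor, and the rises were in Zfpm1 (0.57, SE 0.11, adjusted p = 0.00391), a cofactor of GATA1, and Lmo2 (0.34, SE 0.07, adjusted p = 0.00485), an adaptor of the SCL complex. This list had 3 rises (27.3%, all genes 6.85%) and 2 falls (18.2%, all genes 9.6%) in P2- against WT, no rise and 4 falls (36.4%, all genes 7.07%) in P2+ against WT, and 5 rises (45.5%, all genes 6.18%) and 1 fall (9.09%, all genes 8.76%) in KO against WT. All values are from edgeR's quasi-likelihood test.

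**Figure D5:**
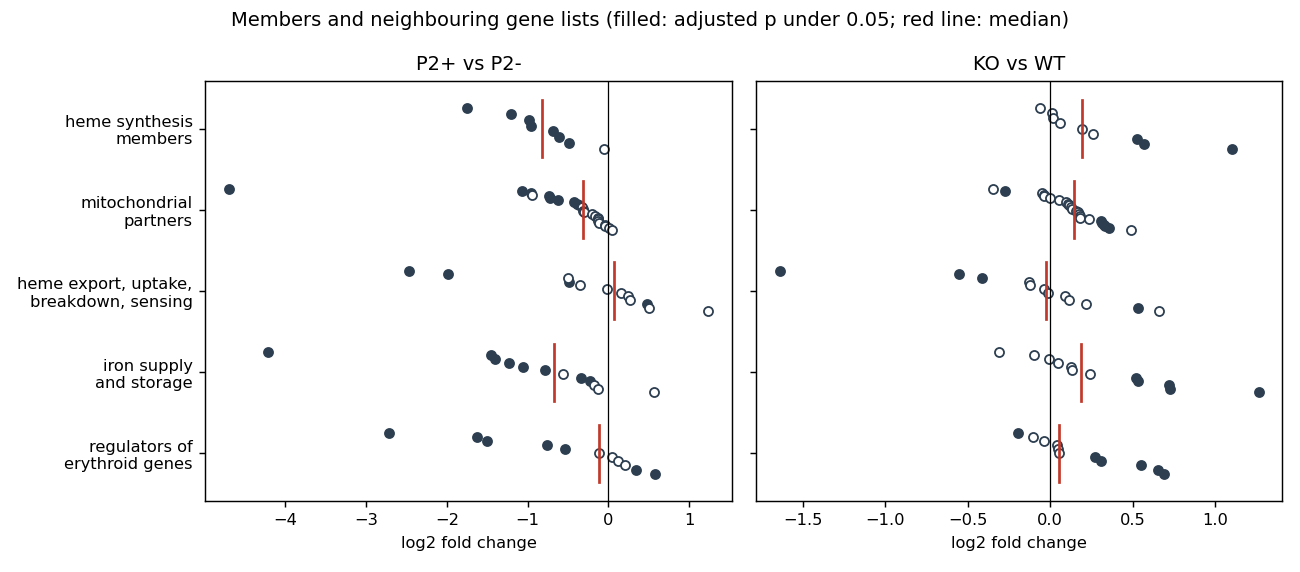
Log2 fold change of each tested gene of the heme synthesis members and of the 4 neighbouring lists in P2+ against P2- (left) and KO against WT (right), with filled points for an adjusted p under 0.05 and a red line for the median of each list. In P2+ against P2- the members have the lowest median (-0.82), followed by iron supply and storage (-0.68), and in KO against WT the members have a median of 0.19.

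Markers of other cell types differed in each of the 4 comparisons as well, and their counts stand against the same shares of all genes tested (20.1% rose and 17.0% fell in P2+ against P2-). In P2+ against P2- PreMegEs, 8 of 10 megakaryocyte markers tested rose and none fell, with a summed level of 942 to 1407 CPM in P2+ and 234 to 297 CPM in P2-. Of 10 maturing erythroid markers tested, 5 fell and 1 rose, with summed levels of 666 to 870 CPM in P2+ and 2134 to 2458 CPM in P2-, and of these the adult beta globin genes and Slc4a1 followed the library rather than the group. Of 10 neutrophil and monocyte markers 7 rose, with 301 to 441 CPM in P2+ and 60.5 to 115 CPM in P2-. Of 5 lymphoid markers tested 3 rose (41.4 to 98.2 CPM in P2+, 16.9 to 25.8 CPM in P2-), with Cd3g at 0 in every library, and both mast and basophil markers tested rose (82.9 to 135 CPM in P2+, 24.5 to 28.3 CPM in P2-), with Cma1 at 0 in every library. Of 7 genes of the PreMegE gate 2 rose (28.6%) and 1 fell (14.3%), shares near those of all genes. None of 6 immediate early genes tested was called, with summed levels of 149 to 7960 CPM in P2+ and 155 to 12037 CPM in P2-. Without replicate 2 of both fractions, 6 members still fell in P2+, all but Uros of the 7 (adjusted p = 0.131).

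The comparisons with WT held marker differences too, where of all genes tested 6.85% rose and 9.6% fell in P2- against WT, 9.45% and 7.07% in P2+ against WT, and 6.18% and 8.76% in KO against WT. The summed levels in WT were 599 to 716 CPM for megakaryocyte, 1209 to 1451 CPM for maturing erythroid, 175 to 308 CPM for neutrophil and monocyte, 38.3 to 60.4 CPM for lymphoid and 24.7 to 40.7 CPM for mast and basophil markers. In P2- against WT, 8 of 10 megakaryocyte markers fell, 4 of 10 maturing erythroid markers rose, and 6 of 9 neutrophil and monocyte and 3 of 5 lymphoid markers fell, with no call in the opposite direction, while neither of the 2 mast and basophil markers was called. In P2+ against WT, 5 of 10 megakaryocyte markers rose and 1 fell, 1 of 10 maturing erythroid markers rose and 4 fell, 2 of 8 neutrophil and monocyte markers and both mast and basophil markers rose, and none of 5 lymphoid markers was called. In KO against WT, 7 of 8 neutrophil and monocyte markers fell and none rose, with summed levels of 80.2 to 129 CPM in KO. Of the megakaryocyte markers 5 of 10 fell and 2 rose (516 to 542 CPM in KO), and of the maturing erythroid markers 5 of 10 rose and none fell (1986 to 2244 CPM in KO). Lymphoid markers fell for 2 of 5 (37.7 to 49.1 CPM in KO), and both mast and basophil markers rose (47.1 to 64.2 CPM in KO). Of the 7 genes of the PreMegE gate, 1 fell in P2- against WT (14.3%), 3 rose in P2+ against WT (42.9%), and 2 rose and 2 fell in KO against WT (28.6% each). Of 7 immediate early genes, 1 fell in KO against WT, with 165 to 1156 CPM in WT and 151 to 507 CPM in KO. The part of the other cell types in the differences of the heme genes was not tested in any of the 4 comparisons.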

How the data were processed

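Total RNA of sorted PreMegEs had been made into strand-specific poly(A) libraries. Paired reads were aligned by the authors to GRCm38 (Bowtie2) and assigned to Ensembl genes (featureCounts). Raw counts per gene and library were deposited. The strand setting of the counting is not given in the sources used here. This leaves some doubt on Ppox, Alas1, Alas2 and Cpox, whose exons partly lie opposite those of another gene. The treatment of reads that align to several places is not given either, which leaves some doubt on the low counts of Hba-a1 and Hba-a2.

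Counts were tested per pair of groups with edgeR 4.0.16 in R 4.3.3 (quasi-likelihood F-test, TMM scaling, at least 1 CPM in at least 3 of 6 libraries, Benjamini-Hochberg over all genes tested, two-sided, called at an adjusted p under 0.05). The scripts were tested on simulated data. RPKM used exonic lengths of GENCODE vM21, which held 40254 of the genes. Alternatives were edgeR's exact test, DESeq2 1.42.0, RLE scaling, no filter, a replicate block, all 12 libraries in 1 fit, a 2-fold minimum and leaving out libraries.

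All 9 members are named, with the 2 called genes of each pathway list that rose and the 2 that fell most in P2+ against P2-, and the 5 genes most like Alas1 and Alas2 among those with a mean of at least 10 CPM. Any other gene was named with its values in view. Members and lists were chosen with earlier results of these data known. Same-numbered P2+ and P2- libraries deviated together (correlations across genes 0.402, 0.590 and 0.432), so the numbers pair these libraries. The study's methods describe the 3 libraries of a group as biological replicates, each from pooled mice, so p-values measure the spread between pools and not between single mice.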

Additional observations from a re-analysis of the deposited data

How the results depend on the processing

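With the 2-fold minimum, 2 members were called in P2+ against P2-, 1 in P2- against WT, 0 in P2+ against WT (4 by edgeR's quasi-likelihood test without it) and 1 in KO against WT. With 1 library left out, 6 members were called in P2+ against P2-, 1 to 5 in P2- against WT, 3 to 5 in P2+ against WT and 2 to 3 in KO against WT. The replicate block left these counts at 7, 3, 4 and 3 and changed no call of a member. In P2+ against P2-, adjusted p with the block was 0.0176 for Uros and at most 2.76e-05 for the other members called (edgeR's quasi-likelihood test). In the comparisons with WT, same-numbered libraries had correlations of -0.098 to 0.186, so the block had no clear pairing to follow there. edgeR's exact test and RLE scaling also gave 7, 3, 4 and 3. DESeq2 and the absence of a filter gave 5 in P2+ against WT through Slc25a38, and all 12 libraries in 1 fit gave 5 there and 4 in P2- against WT through Urod. Without a filter, Alas2 had a log2 fold change of 0.95 in P2+ against P2- (adjusted p = 0.384). Without replicate 2 of both fractions, chosen after seeing the data, 6 were called.

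Signs turned for members that were not called. With 1 library left out, the log2 fold change of Alas1 ran from -0.19 to 0.055 in P2+ against P2-, from -0.11 to 0.13 in P2- against WT, from -0.17 to 0.028 in P2+ against WT and from -0.15 to 0.019 in KO against WT. That of Alas2 ran from -1.22 (without P2+ replicate 2) to 0.80 in P2+ against WT and from -0.56 to 0.50 in KO against WT, and with the replicate block it was -0.14 and -0.15. In KO against WT, Alad ran from -0.11 to 0.14 and Uros from -0.16 to 0.16. The cause was not tested.

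The difference in the log2 ratio of Alas2 to Alas1 between P2+ and P2- ran from -0.394 to 0.957 with 1 library left out, was 0.403 with 1 CPM added, and was 0.449 within replicate numbers (replicate block, exact sign-flip permutation, p = 0.25, the smallest that 3 pairs allow). Neighbouring pairs without overlap in the WT order were 4 with the longest transcript as length, which also turned the order of Alad and Slc25a38 and of Ppox and Fech, and 5 to 8 with 1 library left out, the 8 without WT replicate 1. Without replicate 2 of both fractions, chosen after seeing the data, the difference in the ratio was 0.113. Alas2 had 4 to 80 counts per library, and depth and spread between libraries were not separated.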
